A study of Homo sapiens with 16 samples.

Results

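The chromatin of U2OS-CHRONO cells was precipitated with an antibody to Myc and, separately, with an antibody to BMAL1, and the resulting peak lists were compared with each other. The comparison used 7 of the 16 samples of the series: 1 Myc library with 2487 peaks, and 6 BMAL1 libraries of the same line with 5612, 8240, 2429, 3919, 9391 and 6873 peaks at 0, 4, 8, 12, 16 and 20 h. U2OS is a human osteosarcoma cell line, and U2OS-CHRONO is labelled as a line of that cell type. In the design text of the series the Myc target is called Myc-CHRONO. The BMAL1 cells had received 200 nM dexamethasone and were collected at 4 h intervals, starting 4 h ahead of the lowest point of a luciferase rhythm driven by the BMAL1 promoter. The Myc library carries neither a time nor a treatment label. The labels say nothing about the promoter of the CHRONO construct or whether the line is 1 clone, and peak lists cannot check the cell type. The 6 BMAL1 libraries of the parental line were not used here, and the 3 inputs were not analysed here. Each library stood alone at its time, so the 6 BMAL1 times gave the spread against which the single Myc library was set.

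BMAL1 and CLOCK form a heterodimer that binds E-boxes and activates the genes of the circadian clock. PER and CRY proteins, products of that activation, turn the heterodimer off, and the REV-ERB proteins encoded by NR1D1 and NR1D2 repress the gene for BMAL1. CHRONO, the product of CIART, is a further repressor, known to bind BMAL1 and to act where BMAL1 sits on DNA. The Myc tag is a short peptide derived from the MYC protein, itself an E-box binding factor that works with MAX.

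The promoters below show the 3 arrangements that the lists held: both Myc and BMAL1, BMAL1 without Myc, and Myc without BMAL1. The sequences are the RefSeq windows of GRCh38.p14 from 250 bases before to 50 after the annotated start, read 5′ to 3′ along the gene. Capitals mark the E-box, CACGTG, which reads alike on both strands. They also mark the core letters bound by ETS factors, CCGGAA, which appear as TTCCGG where the match is on the other strand. The inner start of NR1D2 (chr3:23945871-23946170, plus strand), the inner start of TEF (chr22:41381692-41381991, plus strand) and DFFA (chr1:10472480-10472779, minus strand) lay under a Myc peak and under BMAL1 at 6 of 6 times. The first start of TEF (chr22:41367205-41367504, plus strand) and PER1 (chr17:8152355-8152654, minus strand) lay under BMAL1 at 6 of 6 times and under no Myc peak. CHCHD2 (chr7:56106427-56106726, minus strand) and KANSL3 (chr2:96638263-96638562, minus strand) lay under a Myc peak and under BMAL1 at none of the times.
NR1D2: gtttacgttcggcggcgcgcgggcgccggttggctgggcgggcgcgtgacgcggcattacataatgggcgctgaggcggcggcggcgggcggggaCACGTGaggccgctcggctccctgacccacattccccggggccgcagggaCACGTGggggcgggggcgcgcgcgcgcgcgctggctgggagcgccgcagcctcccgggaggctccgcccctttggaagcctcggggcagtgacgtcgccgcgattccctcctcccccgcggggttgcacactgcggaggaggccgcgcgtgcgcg
TEF, inner start: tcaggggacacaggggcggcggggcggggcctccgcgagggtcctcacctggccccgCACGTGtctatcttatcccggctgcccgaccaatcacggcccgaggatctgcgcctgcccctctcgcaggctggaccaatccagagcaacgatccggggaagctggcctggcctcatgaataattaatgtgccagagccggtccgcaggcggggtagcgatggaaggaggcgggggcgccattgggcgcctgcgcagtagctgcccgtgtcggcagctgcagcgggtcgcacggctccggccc
DFFA: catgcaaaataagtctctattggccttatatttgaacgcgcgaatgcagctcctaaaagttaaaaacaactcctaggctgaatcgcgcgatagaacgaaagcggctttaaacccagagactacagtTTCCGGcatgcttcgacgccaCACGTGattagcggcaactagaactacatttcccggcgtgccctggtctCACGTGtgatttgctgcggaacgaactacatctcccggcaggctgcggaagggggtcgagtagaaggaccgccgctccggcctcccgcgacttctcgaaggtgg
TEF, first start: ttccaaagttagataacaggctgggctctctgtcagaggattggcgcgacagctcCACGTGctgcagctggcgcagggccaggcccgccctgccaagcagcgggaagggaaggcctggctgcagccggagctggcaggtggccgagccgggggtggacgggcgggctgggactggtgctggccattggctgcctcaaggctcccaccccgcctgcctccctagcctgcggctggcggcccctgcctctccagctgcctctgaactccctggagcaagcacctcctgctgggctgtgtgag
PER1: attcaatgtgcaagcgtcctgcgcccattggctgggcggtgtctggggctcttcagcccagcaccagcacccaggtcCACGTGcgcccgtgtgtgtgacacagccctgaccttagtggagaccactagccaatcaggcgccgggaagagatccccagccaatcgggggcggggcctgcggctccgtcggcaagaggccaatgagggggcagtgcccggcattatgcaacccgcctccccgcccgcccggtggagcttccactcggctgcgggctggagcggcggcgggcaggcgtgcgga
CHCHD2: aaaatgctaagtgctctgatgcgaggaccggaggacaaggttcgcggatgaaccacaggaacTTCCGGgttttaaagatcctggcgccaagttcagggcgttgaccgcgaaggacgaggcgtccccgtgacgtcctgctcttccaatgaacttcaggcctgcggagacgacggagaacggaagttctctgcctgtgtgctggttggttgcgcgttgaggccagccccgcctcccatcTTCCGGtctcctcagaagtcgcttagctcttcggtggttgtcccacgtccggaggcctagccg
KANSL3: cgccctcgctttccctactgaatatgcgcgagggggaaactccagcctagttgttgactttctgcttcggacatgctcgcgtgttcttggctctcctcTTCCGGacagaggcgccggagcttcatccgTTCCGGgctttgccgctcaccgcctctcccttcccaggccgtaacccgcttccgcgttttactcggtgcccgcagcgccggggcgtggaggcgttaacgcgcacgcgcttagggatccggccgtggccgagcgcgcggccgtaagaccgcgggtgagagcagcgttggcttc

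The printed NR1D2 window and DFFA each held 2 copies of the E-box, and both TEF windows and PER1 held 1. CHCHD2 and KANSL3 held no E-box and 2 copies of the ETS core each. DFFA held 1 copy of the ETS core beside its E-boxes. The windows of PER1 and of the first start of TEF carried the E-box without a Myc peak, so these letters were present on both sides of the Myc comparison. The first start of NR1D2 (chr3:23945036-23945335, plus strand), not printed, lay under BMAL1 at 6 of 6 times and no Myc peak. Its window held no E-box.

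Both motifs were counted on both strands over 22077 different promoter windows of 15843 protein-coding genes. The E-box stood in 133 of 251 windows under both a Myc peak and BMAL1 at 4 or more times (53.0%, Wilson 95% interval 46.8 to 59.1%, which like all intervals here covers counting error only). It stood in 22.2% of the 198 windows under Myc and BMAL1 at 1 to 3 times (17.0 to 28.5%). Under Myc without any BMAL1 peak it stood in 22 of 351 windows (6.27%, 4.18 to 9.31%), a share whose interval covers the 5.72% of windows with neither. That match rested on the list length: with 2429 peaks from each list the share was 11.7% (9.20 to 14.8%), above the 6.47% of windows with neither at that length. BMAL1 at 4 or more times without Myc had it in 251 of 561 windows (44.7%, 40.7 to 48.9%), and all windows together in 8.32%. The related letters CACGTT, searched on both strands, can overlap no copy of the E-box. They stood in 15.5%, 9.09%, 6.27% and 10.7% of these classes in the same order, in 4.84% of windows with neither and in 5.43% of all.

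Promoters with Myc and no BMAL1 had a low E-box share and a share of the ETS core of 48.1% (43.0 to 53.4%). The share was 40.2% (34.4 to 46.4%) with Myc and BMAL1 at 4 or more times and 42.9% (36.2 to 49.9%) with Myc and BMAL1 at 1 to 3 times, and the intervals of these 3 Myc classes overlap. It was 26.9% (23.4 to 30.7%) with BMAL1 at 4 or more times without Myc, 19.0% with neither and 21.1% in all windows. The ETS core, which cannot overlap the E-box, was 1 of 18 motifs searched after the values were seen, beside the 2 E-box forms. It was not the only one more frequent with Myc alone than with neither. ACTACA stood in 15.4% against 7.49% and CGCGAG in 25.9% against 18.8%, while others such as TATAAA were less frequent (3.13% against 10.3%). With Myc alone, the ETS core share was 50.9% in the 57 windows whose Myc peak was in the highest 20% of its list and 47.6% in the other 294. The median GC content of the windows was 66% with Myc and BMAL1 at 4 or more times, 63% with Myc alone, 66.7% with BMAL1 alone and 61.7% with neither, and its part in these shares was not tested. A match says only that the letters are in the window.

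**Figure D1:**
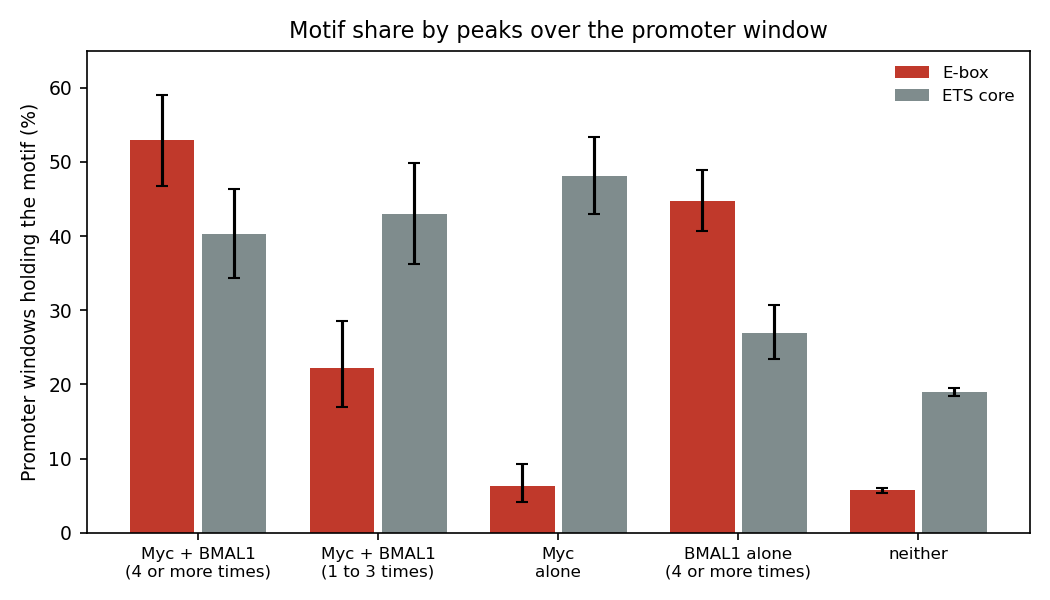
Share of promoter windows (percent, bars from 0, with Wilson 95% intervals) that hold the E-box (red) or the ETS core (grey), by the peaks over the window. The E-box share is 53.0% under Myc with BMAL1 and 6.27% under Myc alone, while the ETS core is at 48.1% under Myc alone and 19.0% under neither.

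The first measured difference between the lists was peak width. Myc peaks had a median width of 156 bp, with quartiles at 137 and 209 bp. The BMAL1 medians were 358, 396, 274, 328, 391 and 362 bp at 0, 4, 8, 12, 16 and 20 h, a mean of 351.5 ± 45.3 bp (SD, n = 6 times). The Myc median lay below all 6 BMAL1 medians, 195.5 bp under their mean. An exact two-sided permutation of which library is called Myc gave p = 0.143, the smallest that 7 libraries allow, and 0.143 after adjustment over the 5 such tests made. That design cannot reach 0.05. Peaks under 200 bp made up 71.8% of the Myc list and 0.303% to 7.53% of the BMAL1 lists. High-ranking peaks were wider in every list, and in the highest 10% by score the Myc median was 281 bp, against 454 bp at 8 h to 758.5 bp at 4 h for BMAL1.

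**Figure D2:**
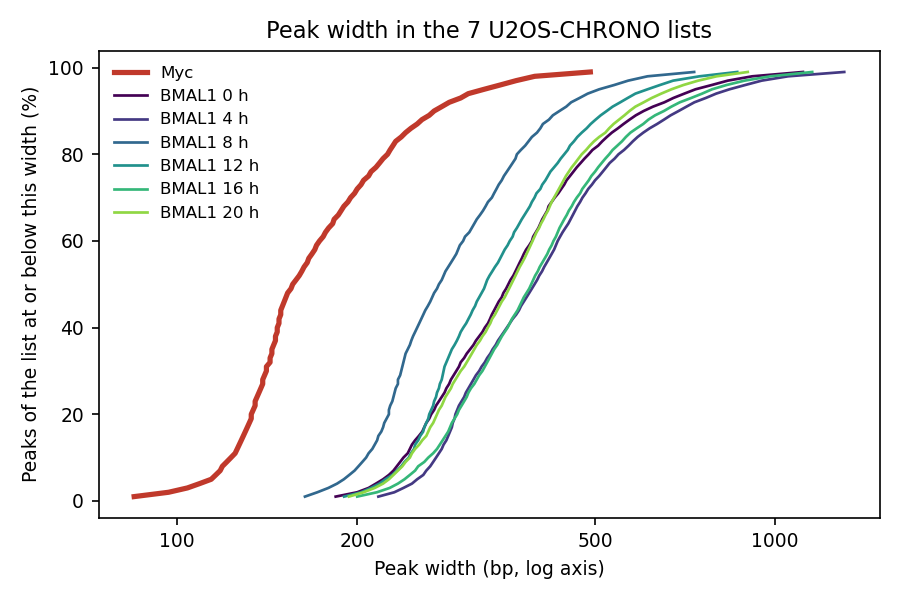
Cumulative share of peaks (percent) by peak width (bp, log axis) for the Myc list and the 6 BMAL1 lists of U2OS-CHRONO, drawn from the 1st to the 99th percentile. The Myc curve, with a median of 156 bp, lies left of every BMAL1 curve, and the nearest is BMAL1 at 8 h with a median of 274 bp.

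The difference was also measured at loci with a peak in both lists. Over 567 overlapping pairs at 8 h to 1084 at 16 h, the median log2 ratio of Myc to BMAL1 width was -1.28, -1.59, -0.83, -1.12, -1.48 and -1.29 at the 6 times. Their mean was -1.26 ± 0.27 (SD, n = 6 times), a width 0.417 times that of BMAL1. Pairs of BMAL1 lists had median log2 ratios between -0.84 and 0.84, taking each pair in both directions. The Myc ratio was below that range at 5 of the 6 times, and at 8 h it lay just inside it. As a mean over the other 6 lists, the log2 ratio was -1.26 for the Myc library and -0.37 to 0.57 for the BMAL1 libraries (exact permutation p = 0.143 over the 7 libraries, the smallest possible). The Myc peak was the narrower in 95.2% to 99.5% of pairs and lay wholly inside the BMAL1 peak in 71.1% to 88.8%.

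Some BMAL1 peaks covered several Myc peaks. Between 24 BMAL1 peaks (8 h) and 46 (4 h and 16 h) held 2 or more Myc peaks, with a maximum of 3. The clearest case was NR1D1, the gene for REV-ERB alpha. Its Myc peaks spanned 40098928 to 40099492, 40100445 to 40101080 and 40101195 to 40101424 on chromosome 17 (hg38), with widths of 565, 636 and 230 bp. At 0, 4, 12, 16 and 20 h a single BMAL1 peak of 4059, 3894, 3476, 4174 and 2852 bp covered all 3. At 8 h the first lay under a BMAL1 peak of 946 bp and the other two under one of 1648 bp. At the inner promoter of TEF, which encodes an activator related to DBP, 1 Myc peak of 777 bp lay under BMAL1 peaks of 1355 to 2596 bp.

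Centres were close at shared loci. The median distance between a Myc centre and a BMAL1 centre was 57.5, 67.5, 38.5, 49.5, 64.8 and 50.8 bp at 0, 4, 8, 12, 16 and 20 h, a mean of 54.8 ± 10.7 bp (SD, n = 6 times). Between BMAL1 lists of different times it was 43.9 ± 4.01 bp, from 35 to 49.5 bp over 15 pairs. The 2 ranges overlapped, since the Myc distances at 8 h and 12 h were no greater than the largest BMAL1 one. The difference of the means was 10.9 bp. As a mean over the other 6 lists, the distance was 54.8 bp for the Myc library and 42.2 to 50.25 bp for the BMAL1 libraries. An exact permutation of these library values gave p = 0.143 over the 7 libraries, the smallest possible. The Myc distance was shortest where BMAL1 peaks were narrowest, at 8 h. Centres within 100 bp of each other made up 64.6% to 84.5% of Myc pairs and 74.4% to 89.2% of BMAL1 pairs.

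Along the direction of transcription the shifts between Myc and BMAL1 centres were small. At pairs with a nearby annotated start the median of Myc minus BMAL1 was 18, 9.5, 4, -5.5, 12 and 4.75 bp, where a positive value is downstream. Between BMAL1 times it ran from -8.25 to 8 bp. The Myc medians at 0, 4 and 16 h were thus downstream of that whole range, while those at 8, 12 and 20 h lay inside it, and this shift was not tested. At single clock genes with wide BMAL1 peaks the distances could be larger. At PER3 the Myc peak of 379 bp, at -251.5 bp from the annotated start, lay 111.5 to 742.5 bp from the BMAL1 centre, while at the distal PER1 site the median distance was 13.2 bp.

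**Figure D3:**
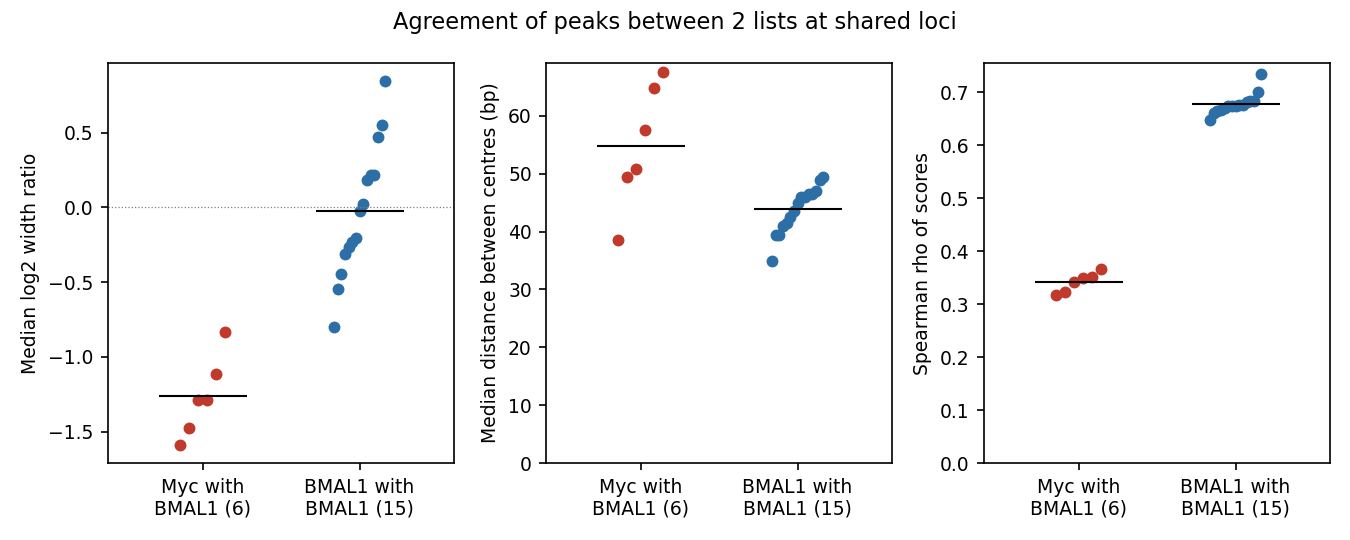
Each point is 1 pair of peak lists: Myc with a BMAL1 time (red, 6 pairs) or BMAL1 with BMAL1 (blue, 15 pairs, earlier time over later time in the width ratio), and lines are means. From left to right are the median log2 width ratio, the median distance between centres (bp) and Spearman's rho of the scores over shared loci. The Myc pairs stand apart in rho and overlap the BMAL1 pairs in distance. The sign of a BMAL1 width ratio depends on which time comes first, and with its sign turned the largest, 0.84, falls to -0.84, just under the Myc pair at 8 h (-0.83).

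Each peak carries a score, the authors' own value, whose definition is not given in the sources used here. It served to order peaks within a list. The exception was an alternative that applied the same minimum score to every list, although whether the lists share a scale is not known. Myc scores ran from 50.01 to 700.05 and BMAL1 scores from 50 to 3194.23. At shared loci the order of Myc scores followed that of BMAL1 weakly, with Spearman's rho of 0.351, 0.316, 0.349, 0.324, 0.367 and 0.341 at 0, 4, 8, 12, 16 and 20 h, over 542 to 1036 loci. Between BMAL1 times rho was 0.648 to 0.734 over 15 pairs. Every Myc value lay below every BMAL1 value, and the means differed by -0.336 (0.341 against 0.678, exact permutation p = 0.143 over the 7 libraries, the smallest possible). Loci within a list are not independent, so rho is a description.

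Merging the 7 lists gave 17283 regions, and 486 had a peak in all 7. Over these 486, rho was 0.327 to 0.376 between Myc and BMAL1 and 0.726 to 0.882 between BMAL1 times. The weak agreement was thus also present where no list lacked a peak. It was better at the top of the order. Of the 10 highest regions by Myc score, 6 were among the 10 highest by mean BMAL1 percentile, where a percentile is the rank of a region among the 486 in a list. Of the highest 20 by each, 10 were shared, of the highest 50, 23, and of the highest 100, 47.

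**Figure D4:**
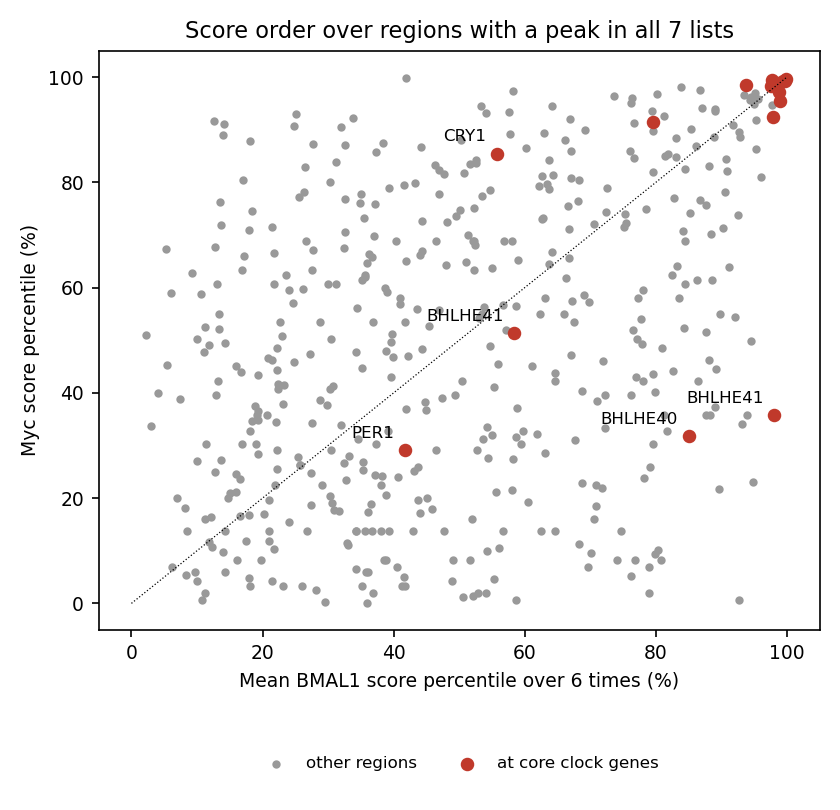
Myc score percentile against the mean BMAL1 score percentile over 6 times, for the 486 regions with a peak in all 7 lists; red points are the 16 regions at core clock genes and the dotted line marks equal percentiles. Most clock regions sit at the top right, and the BHLHE41 and BHLHE40 regions with Myc percentiles of 35.7 and 31.8 lie far below the line.

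The top of the Myc order was mostly clock genes. At NR1D1 the region over the gene start scored 533 in the Myc list, and 3100, 3100, 1128, 2932, 3100 and 3100 in the BMAL1 lists from 0 to 20 h. The Myc peak of 533 was centred 1379.5 bp downstream of the start, and the Myc peak centred at -173 bp scored 501. At 8 h the BMAL1 score of 1128 belonged to the peak inside the gene, and the BMAL1 peak over the start scored 1005. The exact value 3100 recurred in the BMAL1 lists, at 1, 3, 1 and 1 peaks at 0, 4, 16 and 20 h, and 1 peak at 4 h scored higher, 3194. Peaks that share the value 3100 cannot be ordered. A second region, 4307 bp from the NR1D1 end, scored 529.5 for Myc and 629 to 2256 for BMAL1. The shared promoter of DBP, an output activator, and CA11, a carbonic anhydrase-related gene, scored 477 for Myc and 1054 to 3100 for BMAL1. TEF also scored 477 for Myc, against 1079 to 3100. BHLHE40, which encodes the repressor DEC1, scored 398 for Myc and 851 to 2184 for BMAL1. These 5 regions had Myc percentiles of 98.9 or more and mean BMAL1 percentiles of 97.8 or more, so both lists placed them at the top.

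The highest Myc peak of all was a different case. It lay between genes on chromosome 17 (74513809 to 74515241), 5933 bp from CD300LB, which encodes a receptor of myeloid immune cells. It scored 700.05 for Myc and 1422, 86.6, 60.1, 51.6, 384 and 615 for BMAL1 at 0, 4, 8, 12, 16 and 20 h. BMAL1 was thus near the top at 0 h and among the lowest of the 486 regions at 4 and 12 h, with percentiles from 0.514 to 96.8. The remaining regions of the top 10 were an intergenic site 13411 bp from CSNK1D, the gene of a kinase of PER proteins, PER2, the NR1D2 and NKIRAS1 promoter, and CLUAP1, a cilium gene. They scored 394, 387, 354 and 348 for Myc. CLUAP1 was the lowest of these for BMAL1, at a mean percentile of 83.8.

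Regions with a high Myc rank and a low BMAL1 rank were led by DFFA, GMFB and SVIL. The Myc percentile was higher by 50 or more points in 25 of the 486 regions (5.14%). Of these, 11 were at a gene end (44%, 26.7 to 62.9%), an interval that covers the 35.8% (174) of all 486 regions. The largest gap was at DFFA, which encodes the inhibitor of the caspase-activated DNase. DFFA scored 175 for Myc, and 162, 160, 75.4, 94.8, 110.3 and 97.2 for BMAL1 at 0, 4, 8, 12, 16 and 20 h. That put it at the Myc percentile 91.7 and the mean BMAL1 percentile 12.6. GMFB, an actin regulator, followed with 168 for Myc and 71.0 to 202 for BMAL1. GCLC, the catalytic subunit of the rate-limiting enzyme of glutathione synthesis, had 188 for Myc and 67.0 to 251 for BMAL1 at a site 2698 bp from the gene. The 10 regions with the largest gaps also held SVIL, HS1BP3, TBC1D13, RPL27, MDH1, ZBTB10 and SNAP25, with Myc percentiles from 67.4 to 90.6. These regions were chosen for the difference, so it is a description.

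In the other direction the BMAL1 percentile was higher by 50 or more points in 32 of 486 regions (6.58%). Of these, 14 were at a gene end (43.8%, 28.2 to 60.7%), which also covers the 35.8% of all 486 regions. The largest gap lay inside TLN2, the gene of the adhesion protein talin 2. TLN2 scored 50.6 for Myc, close to the lowest score in the list, and 918, 933, 391, 681, 1056 and 729 for BMAL1. OSGIN1, an oxidative stress response gene, scored 57.5 for Myc and 506 to 1316 for BMAL1. AGO1, an Argonaute of the small RNA pathway, scored 52.2 for Myc and 203 to 792 for BMAL1, and its region spanned 35869416 to 35870388 on chromosome 1. The others of the 10 largest gaps were near or in C13orf46, ERCC1, CENPP and NOL8, SGSM2, SPP2, MARCO and SLC35D2, all with Myc scores between 50.98 and 56.94.

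Complete absence in one list was then examined. Of the 249 Myc peaks in the highest 10% by score, 23 had no BMAL1 peak at any time (9.24%, Wilson 95% interval 6.23 to 13.5%), against 47.5% of all 2487 Myc peaks. The number depended on which peaks were kept: with 2429 peaks from each list it was 48 of 243 (19.8%, 15.2 to 25.2%), and with peaks under a score of 100 left out of every list it was 0 of 23, with an interval of up to 14.3%. The overlap was larger at higher ranks: 90.8% of the highest 10%, 78.6% of the next 10%, 56.2% between 20 and 50% and 37.4% of the lower 50% met a BMAL1 peak at some time. The 23 high peaks without BMAL1 lay at a gene end in 18 cases (78.3%, 58.1 to 90.3%). High Myc peaks with BMAL1 at 6 of 6 times did so in 52 of 150 cases (34.7%, 27.5 to 42.6%), and the intervals do not overlap. All 249 high Myc peaks did so in 109 cases (43.8%). The contrast between no BMAL1 and 6 of 6 times did not hold over the whole list. It was 60.4% against 35.7% in the next 10%, 36.1% against 30.2% between 20 and 50%, and 25.8% against 28.6% in the lower 50%.

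The 10 highest Myc peaks without BMAL1 were all at gene ends, and scored 154 to 119.6 (ranks 68 to 150 of the list). First was CHCHD2, which encodes a mitochondrial protein, with a peak of 385 bp at 56106415 to 56106799 on chromosome 7, a score of 154 and the nearest BMAL1 peak of any time 26502 bp away. Its centre lay at -130.5 bp from the annotated start. Next were RPL37, of the large ribosomal subunit, at 144, KANSL3, of the NSL acetyltransferase complex, at 141, and the shared promoter of LYSMD1 and SCNM1 at 138. The peak at ISG20L2 and METTL25B scored 138, that at ZNF570 135, that at GATC and TRIAP1 132 and that at LRRC40 and SRSF11 128. MTR, methionine synthase, scored 123 and MTERF4, a mitochondrial ribosome assembly factor, 119.6. Over these 10 the nearest BMAL1 peak was 12174 to 294330 bp away. No core clock gene was among them.

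Absence of Myc at constant BMAL1 regions was more frequent. BMAL1 peaks merged into 16103 regions, of which 7.77% met a Myc peak. The share increased with the number of BMAL1 times, from 2.08% at 1 time over 6.40%, 8.28%, 12.2% and 16.4% to 36.8% at 6 times. Of the 1319 regions with BMAL1 at all 6 times, 833 had no Myc peak (63.2%, 60.5 to 65.7%). In 4 equal groups of these regions by mean BMAL1 percentile, Myc was present at 67.0% of the highest group (61.7 to 71.8%), then 40.9%, 25.5% and 13.9%. Within each of those groups the Myc share was larger at gene ends than elsewhere: 74.4% against 64.2%, 56.6% against 34.2%, 41.6% against 19.6% and 17.1% against 12.9%. The intervals of the 2 places were apart in the middle groups and overlapped in the highest and the lowest.

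Of the 10 BMAL1 regions without Myc that had the highest mean percentile, 2 were at a gene end, close to the 22.3% of all 833 such regions. They were PPRC1, a coactivator of mitochondrial biogenesis, and TSPAN4, a tetraspanin. The highest-ranked of the 10 was a site on chromosome 3 (45817738 to 45818737), 4579 bp from LZTFL1, a regulator of ciliary transport. It scored 816, 1115, 548, 696, 895 and 1076 for BMAL1 at 0, 4, 8, 12, 16 and 20 h and ranked 11 to 48 in the 6 lists, with the nearest Myc peak 293693 bp away. It was 17th of the 1319 regions, so 16 regions above it had a Myc peak. A site 148342 bp from SLC1A4, an amino acid transporter, scored 442 to 1135. Sites inside SEPTIN9, KCNIP1, MAP4, SPTBN1 and EFL1 and one 29041 bp from UGCG completed the 10. PPRC1 itself scored 284 to 1021.

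Gene ends, the stretches within 1 kb of where a protein-coding gene begins or stops, held a larger share of Myc peaks than of BMAL1 peaks. The share was 36.3% of Myc peaks (Wilson 95% interval 34.4 to 38.2%), and 30.1%, 26.0%, 20.6%, 19.4%, 24.6% and 22.6% of BMAL1 peaks at 0, 4, 8, 12, 16 and 20 h, a mean of 23.9 ± 3.91% (SD, n = 6 times). Myc was above every BMAL1 time, by 12.4 percentage points over the mean (exact permutation p = 0.143, the smallest possible). With 2429 peaks from each list, the Myc share was 36.5% and the BMAL1 shares 20.6% to 33.1%. Within 1 kb of an annotated start lay 32.5% of Myc peaks and 17.0% to 26.3% of BMAL1 peaks.

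This share was not even over the Myc list. By the number of BMAL1 times over the Myc peak, from 0 to 6, gene ends held 31.2%, 45.1%, 44.9%, 43.1%, 48.4%, 50% and 32.1% of Myc peaks. These groups held 1181, 195, 158, 137, 159, 158 and 499 peaks. Peaks shared with some BMAL1 times were thus at gene ends more often than those shared with none or with all, although the interval at 3 times (35.1 to 51.4%) overlapped that at 6 times (28.1 to 36.3%). Among BMAL1 regions the share with Myc was above that without Myc at each number of times, for example 45.9% against 17.3% at 1 time and 35.8% against 22.3% at 6 times. The Wilson intervals with and without Myc were apart at each of the 6 numbers. Regions with Myc were also wider at each number, with medians of 353 against 291 bp at 1 time and 859 against 631 bp at 6 times. The part of region width in these shares was not tested.

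**Figure D5:**
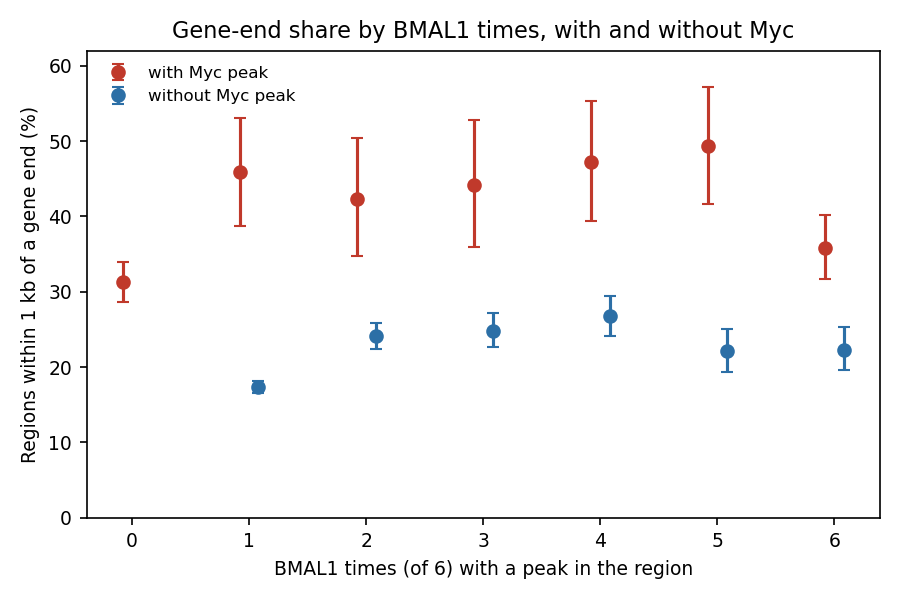
Share of regions within 1 kb of a gene end (percent, with Wilson 95% intervals) by the number of BMAL1 times, for BMAL1 regions with a Myc peak (red) and without one (blue); the red point at 0 stands for Myc peaks without BMAL1. Red lies above blue at each of 1 to 6 times, and falls to 31.2% at 0 times and 35.8% at 6 times.

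At a gene end, 9 of the 20 core clock genes carried a Myc peak, and 13, 14, 11, 10, 14 and 14 had a BMAL1 peak there at 0, 4, 8, 12, 16 and 20 h. Over all 20037 protein-coding genes, 5.37% carried a gene-end Myc peak, and 9.26%, 11.3%, 2.75%, 4.25%, 12.2% and 8.65% a BMAL1 peak. In the gene or within 5 kb of it, 13 clock genes had a Myc peak and 13 to 17 a BMAL1 peak.

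Among the repressors, PER3 had a gene-end Myc score of 186, CRY2 169 and CRY1 138, beside BMAL1 at 6 of 6 times. PER1 and PER2 had Myc peaks outside the gene-end window. The distal PER1 site, centred at -4180.5 bp from the start, scored 310.0 for Myc at 8156347 to 8156823 on chromosome 17, and 1784, 1953, 956, 1190, 2002 and 1596 for BMAL1. PER2 scored 387 for Myc and 341 to 1553 for BMAL1 at a site inside the gene, centred at -253.5 bp from an annotated inner start. CRY1 ranked higher for Myc than for BMAL1 among the 486 regions (percentile 85.4 against 55.7).

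BHLHE41, the gene of the repressor DEC2, stood out in the other direction. Its highest BMAL1 region (26113459 to 26117595 on chromosome 12, outside the gene) scored 65.6 for Myc, and 1953, 3194, 502, 932, 1750.5 and 875 for BMAL1 at 0, 4, 8, 12, 16 and 20 h. That is a Myc percentile of 35.7 and a mean BMAL1 percentile of 98.0. A BHLHE40 site downstream of the gene had 63.1 for Myc and 213 to 1334 for BMAL1. Across the 16 regions at clock genes with a peak in all 7 lists, the median percentile was 96.3 for Myc and 97.8 for BMAL1. Both exceeded 50 in 13 of the 16, and Myc was the higher in 6.

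The other clock genes had few peaks in either list. BMAL1, CLOCK and NPAS2, the activating limb, had no Myc peak in the gene or within 5 kb, and BMAL1 peaks at 2, 1 and 3 of the times. RORA, an activator of the BMAL1 gene, had 1 Myc peak (score 53.5) that met no BMAL1 peak, the only such peak at a clock gene. RORB, HLF and NFIL3 had no Myc peak, while HLF had a gene-end BMAL1 peak at 0, 4, 16 and 20 h with scores of 57.0 to 123.

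CIART, the gene of CHRONO, had 2 Myc peaks at gene ends. The one at 150283265 to 150283612 on chromosome 1 scored 88.2, and met BMAL1 at 0, 4, 16 and 20 h with scores of 104, 133, 158 and 51.6. The other, at 150286430 to 150286988, scored 55.3 and met BMAL1 at 0, 4 and 16 h. At 559 bp that second peak was wide for its score, since the median width in the lower 50% of the Myc list was 144 bp. Whether a CHRONO construct adds reads at this gene was not tested.

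The other lists of genes gave smaller counts, to be read beside 5.37% of all protein-coding genes for Myc and 2.75% to 12.2% for BMAL1. Of 18 clock output genes, 4 carried a gene-end Myc peak and 4 to 9 a BMAL1 peak. They were CA11, NAMPT, which makes NAD, with a Myc score of 79.2, and the Krüppel-like factors KLF11 and KLF10 at 70.2 and 51.0. Of 19 clock modifiers, SIRT1, a deacetylase, was the only one with a Myc peak (score 85.1), and 2 to 5 had a BMAL1 peak. The Myc share of the clock modifiers, 5.26%, was near the 5.37% of all genes. Of 25 lysosome and autophagy genes, 5 had a Myc peak and 4 to 9 a BMAL1 peak, with LAMP1, of the lysosomal membrane, highest at 261. Of 22 glucocorticoid-induced genes, 4 had a Myc peak and 2 to 8 a BMAL1 peak, with FOXO3 at 77.7, BIRC3 at 70.4, SLC19A2 at 69.7 and CEBPB at 51.7. Of 15 genes of other cell types, only SNAP25, of synaptic vesicle fusion, had a Myc peak, and it had BMAL1 at 6 of 6 times.

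Because the Myc tag comes from the MYC protein, its network and target genes are given beside these. Over all protein-coding genes the Myc share was 5.37% and the BMAL1 shares were 2.75% (8 h) to 12.2% (16 h). Of 19 genes of the MYC network, 3 carried a gene-end Myc peak and 2 to 7 a BMAL1 peak. They were MGA, a MAX partner, with a Myc score of 169, MAX at 73.0 and MNT, a repressor that also pairs with MAX, at 69.6. Of 30 MYC target genes, 7 (23.3%) had a Myc peak and 8 to 19 a BMAL1 peak. CDK4, a cell cycle kinase, scored 217 for Myc, ENO1, of glycolysis, 93.1, WDR12, of ribosome assembly, 66.5 and NPM1, nucleophosmin, 61.3. WDR12 was the only one of the 7 without a BMAL1 gene-end peak. Whether the antibody also precipitated the MYC protein was not tested.

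The overlap with each BMAL1 time was compared last, since the Myc library has no time label. BMAL1 covered 38.6%, 42.2%, 22.8%, 27.7%, 43.6% and 39.9% of Myc peaks at 0, 4, 8, 12, 16 and 20 h. These shares stood in the same order as the lengths of the BMAL1 lists. With 2429 peaks from each list the shares drew together, at 29.3%, 28.6%, 23.2%, 24.6%, 27.9% and 27.7%. Pairs of BMAL1 lists of that length shared 53.4% to 73.9% of peaks, above every Myc share. Read depth is unknown, so list length and overlap cannot be told apart from depth, and the antibody, the target and the treatment label differ together between the 2 kinds of library.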

How the data were processed

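Chromatin was cross-linked, sonicated, precipitated and sequenced as DNA nanoballs, per the labels. According to the submitters' processing notes, MACS 1.4.2, HOMER 4.10.3 and bedtools were used on hg38, with no role stated for any of them. No aligner, read depth, peak threshold or control for the calling is given in the sources used here. For each peak the deposited lists give its chromosome, start, end and a score. That score was made by the authors, its definition is not stated, and it was used to rank peaks within a list. Only the alternative with a minimum score applied it across lists. Peaks were taken as called per library, since each library has its own list. Depth is unknown, so Wilson 95% intervals cover counting error only and list length was varied.

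Peaks with 1 bp or more in common were taken as overlapping. Gene ends were 1 kb either side of both ends of 20037 protein-coding genes of the RefSeq table of GRCh38.p14, the assembly of hg38, and promoter windows and strands came from RefSeq too, covering 19 of the 20 core clock genes. All 168 symbols of the 8 gene lists matched. Single values per library were compared by a two-sided exact permutation of which of the 7 libraries is called Myc, adjusted over 5 tests by the Benjamini-Hochberg method. For measures between lists, the value of a library was its mean over the other 6 lists. Other counts had no test, since there was 1 Myc library. The comparison, the members and the gene lists were chosen with earlier results of these data known. The genes named were the whole core clock list, the 4 or fewer best-scoring members with a gene-end Myc peak in every other list, the 10 regions highest for Myc among those in all 7 lists, the 10 largest percentile gaps in each direction, and the 10 highest peaks missing from the other kind of list. Some genes so named are not reported here. The promoters printed, the list of ribosomal protein genes, the 18 further motifs and 3 kinds of alternative were added after seeing the data. Alternatives were equal list length, a score of at least 100, chromosomes 1 to 22 and X, overlap by 50% of the shorter peak, centres within 500 bp, a 5 kb window, other meanings of high, and each BMAL1 time left out. The width ratio, offset, score order and missing-peak calculations were tested on simulated lists. Overlap counts were checked with bedtools on the deposited lists, and the gene-end and motif shares were not tested in this way. Python 3.11.15, NumPy 2.4.6, SciPy 1.17.1, statsmodels 0.14.6, matplotlib 3.10.9 and bedtools 2.31.1 were used.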

Additional observations from a re-analysis of the deposited data

Results flagged for a closer look

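At the region over the NR1D1 start, where the highest Myc score was 533.15, 1 BMAL1 library stood apart from the other 5: the highest score at 8 h was 1127.64, and the nearest other time, 12 h, had 2931.88. The 8 h value belonged to a BMAL1 peak inside the gene, and a separate 8 h peak over the start scored 1005.07. The gap was 0.915 of the whole range of the 6 times. The other 4 times all read exactly 3100, a value that recurs at 1, 3, 1 and 1 peaks of the lists at 0, 4, 16 and 20 h. The size of the gap relative to the range is largely set by these equal values. The 8 h list was also the shortest BMAL1 list. The BMAL1 scores of 38 sets of 6 times were looked at in this way, and chance gives about 1 in 20.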

How the results depend on the processing

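No paired analysis was possible because there is 1 Myc library and it carries neither a replicate number nor a time. With each of the 6 BMAL1 times left out, and under every other alternative tried, the differences of Myc from BMAL1 in median width, width ratio at shared loci, centre distance, score order and gene-end share kept their sign. The smallest possible exact permutation p was 0.167 with 6 libraries, so no alternative could pass 0.05. The width difference ran from -290.3 to -186.6 bp, the log2 width ratio from -1.40 to -1.10, the centre distance difference from 8.44 to 14.9 bp, the rho difference from -0.447 to -0.281 and the gene-end difference from 9.97 to 16.9 percentage points. Core clock genes with a Myc gene-end peak numbered 7 to 10.

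Shares that count absent peaks moved with the length of the lists. High Myc peaks without BMAL1 made up 19.8% at equal list length, 0% of 23 with a score of at least 100, 5.65% of the highest 5%, 15.3% of the highest 20%, and 9.24% to 12.0% with a BMAL1 time left out. Regions at 6 of 6 BMAL1 times without Myc made up 55.3% at equal length, 78.2% with a score of at least 100, 71.7% for 5 or more times, and 63.4% to 70.3% with a time left out, the last without 8 h. Their number was 1414 of 2012 without 8 h, against 833 of 1319. The mean share of Myc peaks over BMAL1 was 26.9% at equal length, 66.1% with a score of at least 100 and 34.2% to 38.4% with a time left out. CACGTG under Myc without BMAL1 stood in 11.7% of windows at equal length, where windows with neither held it in 6.47%, 12.8% with a score of at least 100 and 6.25% to 6.95% with a time left out. At equal length the BMAL1 lists other than 8 h are shorter, so more Myc peaks lack BMAL1 by construction. A score of at least 100 kept 231 of 2487 Myc peaks, and 613 of 2429 (8 h) to 3161 of 9391 (16 h) BMAL1 peaks. This cut treated Myc and BMAL1 scores as being on the same scale, which could not be checked. With 5 or more times 2272 regions counted rather than 1319, and regions at exactly 5 times met Myc in 16.4%. The cause of the other moves was not tested. Under Myc with BMAL1 the motif share was 52.1% to 57.1% throughout.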

Other observations

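Ribosomal protein genes were looked at after RPL37 and RPL27 had appeared among the named peaks. Of 78, 11 carried a gene-end Myc peak (14.1%), and 6, 14, 6, 4, 11 and 5 had a BMAL1 peak at 0, 4, 8, 12, 16 and 20 h. Over all protein-coding genes the Myc share was 5.37%, and the BMAL1 shares were 9.26%, 11.3%, 2.75%, 4.25%, 12.2% and 8.65%. Of the 11, 7 had no BMAL1 gene-end peak at any time, among them RPL37, RPS12 and RPL15, with Myc scores of 144, 107 and 74.4. Over all 1075 genes with a gene-end Myc peak, 403 (37.5%) had no BMAL1 gene-end peak. Since the list was chosen after the values were seen, its count is a description.

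Some Myc peaks at gene ends lay within 1 kb of the ends of 2 or more genes, as at LYSMD1 and SCNM1. This held for 26.0% of gene-end Myc peaks without BMAL1 (Wilson 95% interval 21.8 to 30.7%) and 16.2% of those with BMAL1 at 6 of 6 times (11.3 to 22.7%), and the intervals overlap.

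Chromosome 12 held 5.63% of Myc peaks and 4.34% to 5.02% of BMAL1 peaks, and chromosome 17 held 6.96% against 5.49% to 6.22%. Chromosome 6 held 4.06% of Myc peaks and 4.87% to 5.50% of BMAL1 peaks.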
